A study of Homo sapiens with 4 samples.

Results

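RNA of a mitoplast preparation was compared with RNA of whole cells in replicatively senescent WI-38 fibroblasts, a human lung fibroblast line of fetal origin with a finite replicative lifespan. The comparison rests on 1 library of senescent whole cells and 1 library of senescent mitoplasts, both at population doubling level (PDL) 60, out of 4 libraries in the study; the other two come from whole cells and mitoplasts of young cells at PDL 21. Mitoplasts are mitochondria without their outer membrane. Per the labels, nuclei were spun out of a CHAPS lysate, the crude mitochondria went into hypotonic buffer to swell, and RNase A was used on both sides of the step that pelleted mitoplasts. The RNA of all libraries was labelled total RNA and made into libraries with a TruSeq RNA kit, and the labels name no genetic change or drug. With 1 library in each group, no difference has a replicate check and none carries a p-value. A difference between libraries and a difference between fractions cannot be told apart. Genes entered when the sum of their annotated transcripts reached 20 FPKM (sequenced fragments divided by transcript length and by the library's mapped fragments) in either senescent library. That left 4451 of 51968 genes with annotated transcripts: 3753 coding and 698 noncoding.

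Each gene with a value above 0 in both libraries, called graded, was given log2((mitoplast + 1)/(whole cell + 1)) of FPKM minus the median over graded nuclear-encoded genes. That median was −1.57, so a centred ratio of 0 belongs to a gene about as much below its whole-cell FPKM as the median gene. There were 3056 graded coding and 293 graded noncoding genes. Of the kept genes, 586 coding and 152 noncoding were under 20 FPKM in whole cells and entered through the mitoplast library alone. Where these were graded, a centred ratio of 1 or more was built into their entry. Another 2001 coding and 444 noncoding genes entered through whole cells alone, which put their mitoplast value below their whole-cell value. Genes listed at exactly 0 in either library have no centred ratio and are given apart, because such a 0 can be an estimate handed to an overlapping transcript. Of genes just inside the floor, at 20 to 25 FPKM in their higher library, 33.1% of 695 were listed at 0 in the other library, against 36.4% of 979 just outside it at 15 to 20 FPKM.

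Mitochondria transcribe a small circular genome from both strands into long precursors that are cut into 2 rRNAs, 22 tRNAs and 13 mRNAs, and import the rest of their proteins, which are made from nuclear genes on cytosolic ribosomes. Some cytosolic ribosomes translate on the outer surface of the outer membrane, while spliceosomal and nucleolar RNAs work in the nucleus. RNase treatment of mitoplasts is used to remove RNA that the inner membrane does not enclose.

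Sequences are shown first for a pair of small RNAs that stood far from the median gene on opposite sides. The lines below give, 5′ to 3′, RMRP, the RNA subunit of RNase MRP, which was low in mitoplasts, and MT-TE, the mitochondrial glutamate tRNA, which was high in senescent mitoplasts. Both are GENCODE release 29 transcripts on GRCh38. The deposited values were made on hg19, whose coordinates are not used here. RMRP lies at chr9:35657754-35658017 and MT-TE at chrM:14674-14742, both on the minus strand.
RMRP: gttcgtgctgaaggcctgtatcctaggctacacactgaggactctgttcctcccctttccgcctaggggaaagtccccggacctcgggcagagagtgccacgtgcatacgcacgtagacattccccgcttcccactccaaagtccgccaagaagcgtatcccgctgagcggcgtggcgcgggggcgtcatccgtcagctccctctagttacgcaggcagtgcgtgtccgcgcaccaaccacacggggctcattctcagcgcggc
MT-TE: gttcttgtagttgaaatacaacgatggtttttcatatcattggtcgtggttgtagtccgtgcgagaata

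Of the RNAs encoded by mitochondrial DNA, MT-CYB and MT-TE were graded. MT-CYB, which encodes cytochrome b of complex III, was at 14663 FPKM in senescent whole cells against 29903 in senescent mitoplasts, a centred ratio of 2.60. MT-TE was at 493 and 10391 FPKM, a centred ratio of 5.97. Both stood higher in mitoplasts before centring as well. In the young pair MT-CYB was again higher in mitoplasts, at 4257 and 16952 FPKM, whereas MT-TE was at 210 FPKM in whole cells and listed at 0 in mitoplasts. The other 6 mitochondrial genes above the floor were listed at 0 in either library. MT-RNR2, the large mitochondrial rRNA, was listed at 0 in whole cells and was at 36308 FPKM in mitoplasts, and MT-TV, the valine tRNA next to it, was listed at 0 and was at 3230 FPKM. In the opposite direction, MT-ND1, a complex I subunit, was at 13185 FPKM in whole cells but listed at 0 in mitoplasts. The tRNAs MT-TQ, MT-TM and MT-TL1 were at 527, 258 and 158 FPKM in whole cells but listed at 0 in mitoplasts. The other 29 of 37 mitochondrial genes, among them 11 mRNAs and MT-RNR1, were listed at 0 in both senescent libraries. In the young pair all 13 mRNAs were above 0 in both libraries. A mitochondrial mRNA at 0 in these senescent libraries is therefore a listing and cannot be read as a level. Nor does its direction follow the fraction, since MT-ND1 and MT-RNR2 were each listed at 0 in a different library.

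Nuclear copies of mitochondrial genes were graded where the genes themselves were not. These pseudogenes are stretches of mitochondrial DNA inserted into chromosomes; they were picked out after their values were seen. All 7 that reached the floor were graded and were higher in mitoplasts by 1 or more, against 38.7% of all 292 graded nuclear-encoded noncoding genes. MTND2P28 and MTCO1P12, at 15.0 and 19.1 FPKM in whole cells, entered through mitoplasts alone, so that a high ratio was built into their entry. MTND6P4, a copy of MT-ND6, was at 73.7 FPKM in whole cells against 2706 in mitoplasts, a centred ratio of 6.75. MTCO3P12, a copy of MT-CO3, was at 751 and 2449 FPKM (3.28). The other five, MTND2P28, MTCO1P12, MTND4P12, MTCO2P12 and MTND1P23, had centred ratios of 3.53, 3.18, 2.97, 2.94 and 2.84. Apart from MTND6P4, they lay within 1 log2 unit of MT-CYB. Aligned to the mitochondrial gene each was copied from, the 7 transcripts were 95% to 99.1% identical. MTND1P23 differed from MT-ND1 at 3 of 352 aligned bases and MTND6P4 from MT-ND6 at 26 of 522. Reads of a mitochondrial RNA may therefore be placed on these entries. How far their values come from the mitochondrial genes was not tested.

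**Figure D1:**
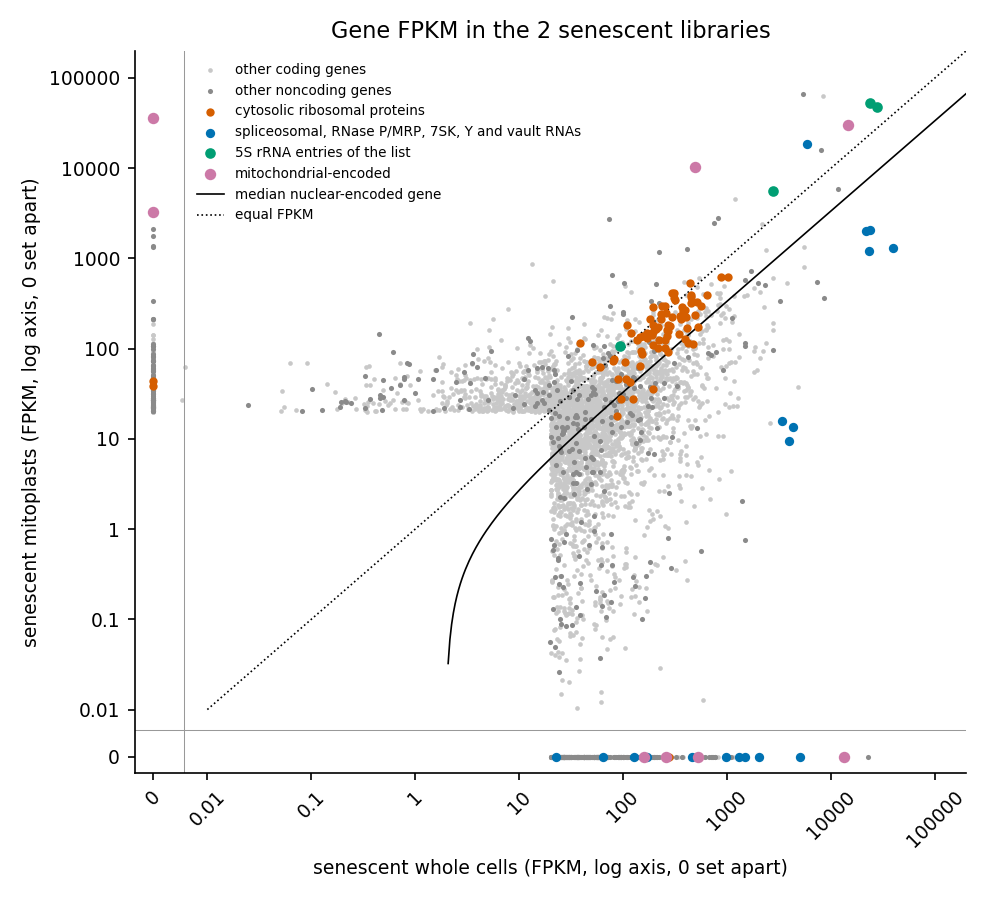
Summed FPKM of each gene at 20 FPKM or more in either library, in senescent whole cells (horizontal, log axis) and senescent mitoplasts (vertical, log axis), with values of 0 set apart beyond the grey lines; points are genes, the solid line is the median nuclear-encoded gene (−1.57 on the log2(FPKM + 1) scale) and the dotted line marks equal FPKM. Most ribosomal protein genes lie between the lines, the 5S entries and MT-CYB above both, and RMRP, RPPH1, 7SK and most spliceosomal RNAs far below or at 0.

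5S rRNA is the small RNA of the large cytosolic ribosomal subunit. All 4 measured 5S entries of the list were higher in mitoplasts. They are copies of 1 gene family, among which reads may be split. RNA5SP141 was at 23623 FPKM in whole cells against 53375 in mitoplasts, RNA5SP149 at 27547 and 47221, RNA5S9 at 2782 and 5512 and RNA5SP202 at 93.6 and 106. Their centred ratios were 2.75, 2.35, 2.56 and 1.75, and in the young pair 3.16, 3.42, 3.19 and 2.83. The mitoplast value exceeded the whole-cell value for each entry in both pairs. More widely, 21 of 31 kept rRNA entries and rRNA pseudogenes were graded and 18 of these were higher by 1 or more, with a median of 2.65. Of the 18, RNA5SP355, RNA5SP225, RNA5SP71, RNA5SP150, RNA5SP99 and RNA5SP215 were at 3.37 to 16.9 FPKM in whole cells. They entered through mitoplasts alone, so that a high ratio was built into their entry. The ungraded entries were 6 listed with no FPKM in mitoplasts and 4 with none in whole cells. Among all 292 graded nuclear-encoded noncoding genes 38.7% were higher and 36.0% lower by 1 or more. RNA5-8SP6, an entry of 152 nt for 5.8S rRNA, which pairs with the large cytosolic rRNA, stood highest among those above 1000 FPKM: 5338 FPKM in whole cells against 66300 in mitoplasts (5.21). In the young pair it was at 2510 and 79260 FPKM. The 5.8S rRNA is a part of the cytosolic ribosome that is not encoded in mitochondrial DNA.

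RMRP, RPPH1 and 7SK lay on the other side of the median gene. The RNA components of RNase MRP and RNase P, which process ribosomal and transfer RNA precursors, and 7SK, which restrains transcription elongation, were each abundant in whole cells. RMRP was at 39150 FPKM in whole cells against 1305 in mitoplasts, RPPH1 at 23523 and 2042, and 7SK at 23299 and 1194. The centred ratios were −3.33, −1.95 and −2.71, against −3.82, −2.86 and −4.47 in the young pair. All 3 were lower than the median gene in both pairs, by less in the senescent pair. The Y RNAs RNY1, RNY3 and RNY4, which bind the Ro60 protein, and the vault RNA VTRNA1-1 were at 1476, 128, 63.7 and 986 FPKM in senescent whole cells but listed at 0 in senescent mitoplasts. In the young mitoplast library RNY1, RNY3 and VTRNA1-1 had been at 1264, 558 and 2250 FPKM, above their young whole-cell values.

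Spliceosomal RNAs differed among themselves. Of 11 kept, 6 were listed at 0 in mitoplasts, 4 were graded lower and 1 was graded higher. By comparison, 45.4% of all 698 kept noncoding genes were at 0 in mitoplasts. Of 292 graded nuclear-encoded noncoding genes, 36.0% were lower and 38.7% higher by 1 or more. RNU4ATAC, RNU4-1 and RNU5A-1 were at 3984, 4279 and 3395 FPKM in whole cells against 9.38, 13.4 and 15.8 in mitoplasts, with centred ratios of −7.01, −6.64 and −6.09. RNU4-2, which like RNU4-1 encodes U4 RNA, was at 21630 and 2003 FPKM (−1.86). The exception was RNU11, the U11 RNA that recognises the 5′ splice site of minor introns. It was at 5812 FPKM in senescent whole cells against 18699 in senescent mitoplasts, a centred ratio of 3.26, and at 6479 and 4047 FPKM in the young pair (0.15). RNU12, its partner in the U11/U12 particle, was at 2050 FPKM in senescent whole cells but listed at 0 in mitoplasts. Those partners therefore lay on opposite sides in the senescent pair. Entries for U1 and U6 RNA were listed at 0 in all 4 libraries and give no value.

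Small nucleolar and Cajal body RNAs, which guide chemical modification of rRNA and snRNA, were largely listed at 0 in mitoplasts. Of 76 kept, 67 (88.2%) were at 0 in mitoplasts and 1 at 0 in whole cells. Among all 698 kept noncoding genes, 45.4% were at 0 in mitoplasts and 12.6% in whole cells. SNORA22 and SCARNA17, at 1919 and 1338 FPKM in whole cells, were both at 0 in mitoplasts. SCARNA7 was at 1474 and 0.759 FPKM, the lowest centred ratio of any noncoding gene (−8.14, or −9.11 with a pseudocount of 0.1 FPKM), and SNORD17 at 1402 and 2.04 (−7.27). The most abundant members, SNORA73A and SNORA73B, which act in pre-rRNA processing, were at 8617 and 7338 FPKM in whole cells, while mitoplasts held 365 and 545 (−2.99 and −2.17). SNORA71D and SNORA74D went the other way, at 220 and 1188 and at 78.1 and 659 FPKM (4.0 and 4.63), and SNORA36A was listed at 0 in whole cells and at 1334 FPKM in mitoplasts. SNORA71D and SNORA74D belong to snoRNA families with several copies, among which reads may be split.

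On a list of long noncoding RNAs, most of them known for staying in the nucleus, graded members had centred ratios from −2.11 to 0.32. The highest was OIP5-AS1, at 36.3 FPKM in whole cells against 14.6 in mitoplasts. MALAT1, a nuclear speckle RNA, was at 2305 FPKM in whole cells against 507 in mitoplasts (−0.61), carried in both by an annotated transcript of 480 nt. In the young pair it was at 1265 and 89.0 FPKM (−2.99). PVT1 was at 1490 and 115 FPKM (−2.11). NORAD, a cytoplasmic RNA that binds Pumilio proteins, was at 43.1 and 16.8 FPKM (0.26), in a transcript of 5339 nt. NEAT1, the scaffold of paraspeckles, and JPX and FTX were at 24.3, 213 and 44.9 FPKM in whole cells but listed at 0 in mitoplasts. Over the list, 7 of 13 matched members reached the floor, 4 were graded, 1 was lower by 1 or more and none was higher. The shares over all graded nuclear-encoded noncoding genes were 36.0% lower and 38.7% higher. Among graded noncoding genes with a gene name, pseudogenes left out, the 8 highest ratios ran from 5.91 (LINC00871) to 7.44 (LINC01402). All 8 were under 1 FPKM in whole cells, between 23.7 and 92.6 FPKM in mitoplasts, and entered through the mitoplast library alone.

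**Figure D2:**
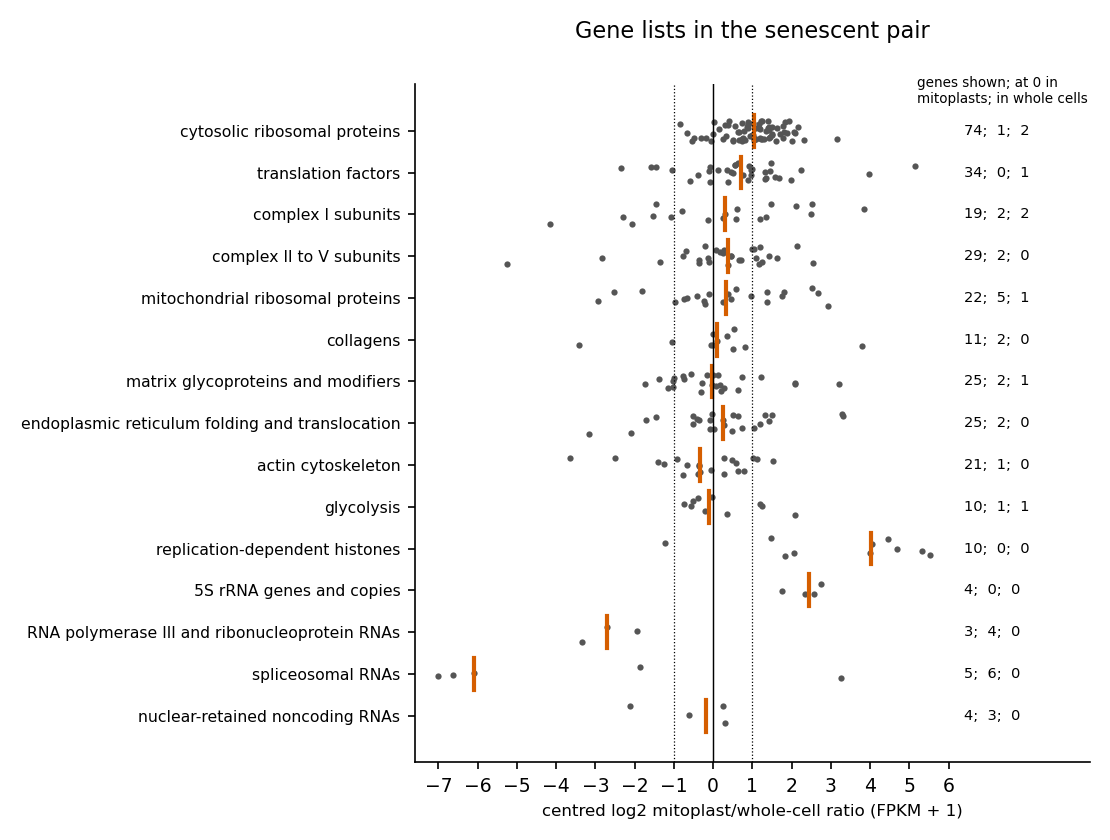
Centred log2 mitoplast to whole-cell ratio of the graded members of 15 gene lists in the senescent pair (points, spread vertically for legibility), with the list median as a bar and dotted lines at −1 and 1; the numbers at the right are graded members, members at 0 in mitoplasts and members at 0 in whole cells. Ribosomal proteins form a compact group with a median of 1.04, while the respiratory chain lists spread over several log2 units on both sides of 0.

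Among coding genes, 881 of 3055 graded nuclear-encoded genes (28.8%) were higher in mitoplasts by a centred ratio of 1 or more and 890 (29.1%) were lower. The middle 50% of genes lay between −1.27 and 1.26. Before centring, 663 of them had a mitoplast value above their whole-cell value. Of the 3753 kept coding genes, 14.3% stood at 0 in the mitoplast library and 4.24% in the whole-cell library.

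Cytosolic ribosomal proteins stood above the median gene as a group. Of 79 members, 77 reached the floor and 74 were graded; 40 (54.1%) were higher by 1 or more, against 28.8% of all graded coding genes, and 0 were lower. Their median was 1.04, against −0.02 over all graded coding genes, and the middle 50% of members lay between 0.65 and 1.45. The large subunit, with 45 graded members, had a median of 1.10 and the small subunit, with 29, a median of 0.90. RPLP2, a protein of the ribosomal stalk, was at 38.5 FPKM in whole cells against 116 in mitoplasts (3.15) and RPL14 at 110 and 185 (2.32). The leading transcript of RPLP2 was a coding one of 637 nt in whole cells and a noncoding one of 350 nt in mitoplasts. Its coding transcripts alone gave −0.35. At the low end RPS28 was at 193 and 35.4 FPKM (−0.84), RPS14 at 87.7 and 17.8 (−0.66) and RPS27A at 124 and 27.8 (−0.55). Neither RPS28 value held a coding transcript, and retained-intron transcripts led in both libraries. RPL11 was at 274 FPKM in whole cells but listed at 0 in mitoplasts, and RPS15A and RPS4X were listed at 0 in whole cells and at 43.7 and 38.8 FPKM in mitoplasts. Where the same transcript led in both libraries, 51 members, the median was 1.02 and 26 were higher by 1 or more. The position is relative to other mRNAs: 15 of the 74 had a higher FPKM in mitoplasts than in whole cells, and without centring the list's median was −0.53. Ribosomal protein genes have many processed pseudogenes with which reads may be shared.

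Ribosomal protein mRNAs are known for a 5′ terminal run of pyrimidines that starts with a C and ties their translation to growth signals. Windows of 20 bases before and 20 after an annotated start are shown for the graded members named above. RPS27A had 3 annotated starts, and a start with such a run was given preference for its window. The windows are from RefSeq on GRCh38.p14, with the unbroken run of pyrimidines across the start in capitals where there is one. They lie at chr11:809947-809986 (plus), chr3:40457319-40457358 (plus), chr19:8321476-8321515 (plus), chr5:150449720-150449759 (minus) and chr2:55232668-55232707 (plus).
RPLP2: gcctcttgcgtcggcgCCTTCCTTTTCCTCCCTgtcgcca
RPL14: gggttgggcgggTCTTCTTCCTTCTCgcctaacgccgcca
RPS28: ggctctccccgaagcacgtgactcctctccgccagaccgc
RPS14: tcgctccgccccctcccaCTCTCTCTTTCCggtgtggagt
RPS27A: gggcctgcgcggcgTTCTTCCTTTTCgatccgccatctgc
A start with C followed by 4 pyrimidines was found for 45 of 60 graded ribosomal protein genes with an entry (75%) and for 5.14% of all 27305 genes with an entry. A gene counted if any of its annotated starts had this run. The run was read on the gene's strand at the start base alone. Of the 5 windows shown, those of RPLP2, RPL14, RPS14 and RPS27A have it and that of RPS28 does not. Among graded coding genes outside the list, 10.4% of those higher by 1 or more, 7.76% of those between and 7.19% of those lower had such a start.

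Translation factors were spread more widely. Of 34 graded, 11 (32.4%) were higher by 1 or more and 4 (11.8%) lower, with a median of 0.70. Over all graded nuclear-encoded coding genes 28.8% were higher and 29.1% lower. EIF3F, a subunit of the initiation factor that recruits the small ribosomal subunit, was at 2.83 FPKM in whole cells against 44.2 in mitoplasts (5.14), and EIF2S1 at 8.56 and 49.6 (3.98). Both entered through mitoplasts alone, so that a high ratio was built into their entry. Both mitoplast values were all in retained-intron transcripts, of 454 and 527 nt. Their coding transcripts were at 0 in mitoplasts and gave no graded ratio. EEF1A1, the main elongation factor, was at 525 and 260 FPKM (0.56), with 73.8% and 19.9% in coding transcripts, which alone gave −1.31.

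Nuclear-encoded subunits of the respiratory chain were spread more widely around the median gene than ribosomal proteins. For complex I, which passes electrons from NADH to ubiquinone, 23 of 37 members were kept and 19 graded. Of the 19, 7 were higher and 6 lower, against 28.8% and 29.1% of all graded nuclear-encoded coding genes. The median was 0.31. That median depended on the choice of genes and transcripts: it was −0.46 with a floor of 50 FPKM, 0.94 where the same transcript led in both libraries and 1.61 with transcripts of 600 nt or longer. NDUFA10 was at 5.02 FPKM in whole cells against 28.0 in mitoplasts (3.84), NDUFB3 at 52.2 and 102 (2.53) and NDUFB1 at 25 and 48.2 (2.49). NDUFA10 entered through mitoplasts alone. NDUFB10 was at 59.8 and 0.150 FPKM (−4.15), NDUFA3 at 393 and 25.8 (−2.30) and NDUFS4 at 63.8 and 4.21 (−2.06). The NDUFB10 ratio depends on the pseudocount, and in the young pair NDUFB10 was listed at 0 in whole cells and at 157 FPKM in mitoplasts. The NDUFS4 mitoplast value held no coding transcript. NDUFV2 and NDUFS6 were listed at 0 in whole cells and at 140 and 20.1 FPKM in mitoplasts, and NDUFB4 and NDUFB5, at 95.9 and 22.5 FPKM in whole cells, were listed at 0 in mitoplasts. Members of 1 complex thus ran in both directions. NDUFB3 and NDUFB1 kept the same coding transcript in the lead, which held for 8 of the 19.

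For complexes II to V, from succinate dehydrogenase to ATP synthase, 29 of 40 were graded, with a median of 0.39. Of the 29, 9 were higher and 3 lower, against 28.8% and 29.1% of all graded nuclear-encoded coding genes. COX7A2, a subunit of cytochrome c oxidase, was at 69.3 FPKM in whole cells against 138 in mitoplasts (2.55), and UQCRC1, a core protein of complex III, at 33.3 and 34.7 (1.63). The UQCRC1 mitoplast value held no coding transcript, so its coding transcripts alone gave no graded ratio. COX6A1, in the same oxidase as COX7A2, was at 126 and 0.114 FPKM (−5.26), with 1 coding transcript of 572 nt in both libraries, and COX7B at 23.1 and 0.138 (−2.83). SDHA, the flavoprotein of succinate dehydrogenase, was at 87.7 and 131 FPKM (2.15). Its whole-cell value was 15.0% coding. Its mitoplast value held no coding transcript either, so coding transcripts alone gave no graded ratio. The 11 graded ATP synthase genes ran from −0.77 (ATP5PB, at 114 and 21.5 FPKM) to 1.42 (ATP5F1B, at 149 and 134 FPKM), with 2 higher by 1 or more and 0 lower.

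Mitochondrial ribosomal proteins, which build the ribosome of the matrix, gave a similar picture. Of 77 matched members, 28 were kept and 22 graded, with 7 higher, 3 lower, 5 at 0 in mitoplasts and a median of 0.32. Over all graded nuclear-encoded coding genes 28.8% were higher and 29.1% lower. MRPL37 was at 9.68 FPKM in whole cells against 26.3 in mitoplasts (2.93) and MRPL36 at 26 and 0.185 (−2.94). The 3 highest members, MRPL37, MRPL3 and MRPL9, entered through mitoplasts alone, so that a high ratio was built into their entry. Their mitoplast values were led by noncoding transcripts. Coding transcripts alone gave 1.86 for MRPL37, while those of MRPL3 and MRPL9 were at 0 in mitoplasts. Of the genes for mitochondrial DNA and RNA maintenance, 6 of 42 reached the floor. SSBP1, which coats single-stranded mitochondrial DNA, was at 62.5 and 31.4 FPKM (0.60), and SLIRP, which stabilises mitochondrial mRNAs with LRPPRC, at 59.5 and 17.8 (−0.11). Of import and chaperone genes 8 were graded, from TIMM50 at 21.8 and 0.522 FPKM (−2.33) to TIMM44 at 7.81 and 27.4 (3.26). TIMM44 entered through mitoplasts alone.

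mRNAs translated on the endoplasmic reticulum lay around the median gene in the senescent pair. Among collagens, 11 of 13 kept were graded, with a median of 0.11. Of the 11, 1 was higher and 2 lower, against 28.8% and 29.1% of all graded nuclear-encoded coding genes. The higher one, COL16A1, was at 4.0 FPKM in whole cells against 22.4 in mitoplasts (3.80) and entered through mitoplasts alone. Its mitoplast value was led by a noncoding transcript of 620 nt (64.3%), and its coding transcripts were at 0 there. COL1A1 and COL1A2, the chains of type I collagen, were at 846 and 414 FPKM (0.54) and at 425 and 142 FPKM (0.00) in whole cells and mitoplasts. With coding transcripts alone COL1A1 gave −0.28. COL4A2 was at 454 and 13.2 FPKM (−3.43). COL12A1 and COL5A1, at 25.1 and 29.4 FPKM in whole cells, were listed at 0 in mitoplasts. Matrix glycoproteins had a median of −0.02 over 25 graded members, with FN1, encoding fibronectin, at 737 and 111 FPKM (−1.15) and SPARC at 382 and 544 (2.08). Proteins of endoplasmic reticulum folding and translocation had a median of 0.24 over 25. CALR, the chaperone calreticulin, was at 66.2 and 223 FPKM (3.31) and DNAJC3 at 33.8 and 0.304 (−3.17).

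Cytosolic and cytoskeletal mRNAs were of the same order. GAPDH was at 863 and 368 FPKM in whole cells and mitoplasts (0.35), with the same coding transcript of 1256 nt leading in both. ACTB was at 3786 and 533 FPKM (−1.25). Glycolysis had a median of −0.11 over 10 graded genes, from PFKM at −0.74 to LDHB at 2.09, and actin cytoskeleton −0.34 over 21, from VCL at −3.65 to TAGLN at 1.53. Of the cell identity markers, 14 of 15 fibroblast markers were kept and 12 graded, with a median of 0.00. VIM, encoding vimentin, was at 1144 FPKM in senescent whole cells but listed at 0 in senescent mitoplasts, whereas the young pair had 3262 and 4312. PDGFRA, at 198 FPKM in whole cells, was also at 0 in mitoplasts. None of 14 epithelial or 14 blood and immune markers reached 20 FPKM. The endothelial list had TEK at 24.8 and 9.22 FPKM and VWF listed at 0 in whole cells and at 23.3 in mitoplasts, while its other matched members were below the floor. CDKN1A, the cell cycle inhibitor p21, was at 152 and 35.9 FPKM (−0.48), and CDKN2A, encoding p16, at 15.6 and 33.5 (2.63). CDKN2A entered through mitoplasts alone.

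Replication-dependent histone genes, whose mRNAs end in a stem-loop in place of a poly(A) tail, were mostly higher. Of 33 matched members 10 were kept and graded, with a list median of 4.02. By 1 or more, 9 were higher and 1 lower, against 28.8% and 29.1% of all graded nuclear-encoded coding genes. Of the 10 members, 6 entered through the mitoplast library alone, so that a high ratio was built into their entry. H2AC17 was at 1.82 FPKM in senescent whole cells against 42.8 in mitoplasts (5.53) and H1-4 at 2.52 and 46.6 (5.33), each in 1 coding transcript. H2BC12, H1-2 and H2BC4, at or above the floor in both libraries, were at 50.3 and 70.9, 36.6 and 43.8, and 31.8 and 29.7 FPKM (2.06, 1.82 and 1.48), and H2AC6 at 69.8 and 9.22 (−1.22). With the floor required in both libraries the median of the list was 1.25 against a centre of −1.0. The mitosis list had 3 kept genes, BUB1B, HMMR and SMC4. All 3 entered through mitoplasts alone, at 21.4, 20.0 and 45.4 FPKM against 0.634, 0.342 and 3.34 in whole cells. Coding transcripts of SMC4 were at 0 in mitoplasts.

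The most extreme coding genes were mostly carried by short transcripts, and their ratios depend on the pseudocount where either value is under 1 FPKM. The highest ratio was that of RBFOX3, a splicing factor of neurons, at 0.0619 FPKM in whole cells against 69.1 in mitoplasts (7.62, or 10.37 with a pseudocount of 0.1 FPKM), 99.3% of it in a transcript of 260 nt. The lowest was LCOR, a nuclear receptor corepressor, at 583 and 0.0127 FPKM (−7.6, or −10.71 with that pseudocount), its whole-cell value carried to 96.3% by a noncoding transcript of 245 nt. EGFR, at 403 and 1.21 FPKM (−5.94), had a whole-cell value that was all in a noncoding transcript of 561 nt. Its coding transcripts were at 0 in whole cells and gave no graded ratio. Of the 10 highest coding genes, CCDC85B alone was led in mitoplasts by a transcript over 1000 nt. In level, the highest nuclear coding gene in mitoplasts was DLG2, a synaptic scaffold gene singled out after its value was seen, at 8422 and 63723 FPKM (4.49), led by a noncoding transcript of 417 nt.

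Length and type of the leading transcript, the one with the highest FPKM of its gene, moved with the ratio. Coding genes whose leading transcript in mitoplasts was under 600 nt, 1399 genes, had a median of 0.68, and those at 1500 nt or more, 663 genes, a median of −1.03. Seen from whole cells the order turned round, with −0.54 under 600 nt (1194 genes) and 0.60 at 1500 nt or more (891 genes). The leading transcript was chosen by the values that make the ratio, so these medians are a description. In coding genes as a whole, transcripts typed as protein coding held 64.2% of the FPKM in whole cells against 40.9% in mitoplasts, and those typed as processed transcript 21.0% and 43.5%. Retained-intron transcripts held 6.17% and 9.81%.

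**Figure D3:**
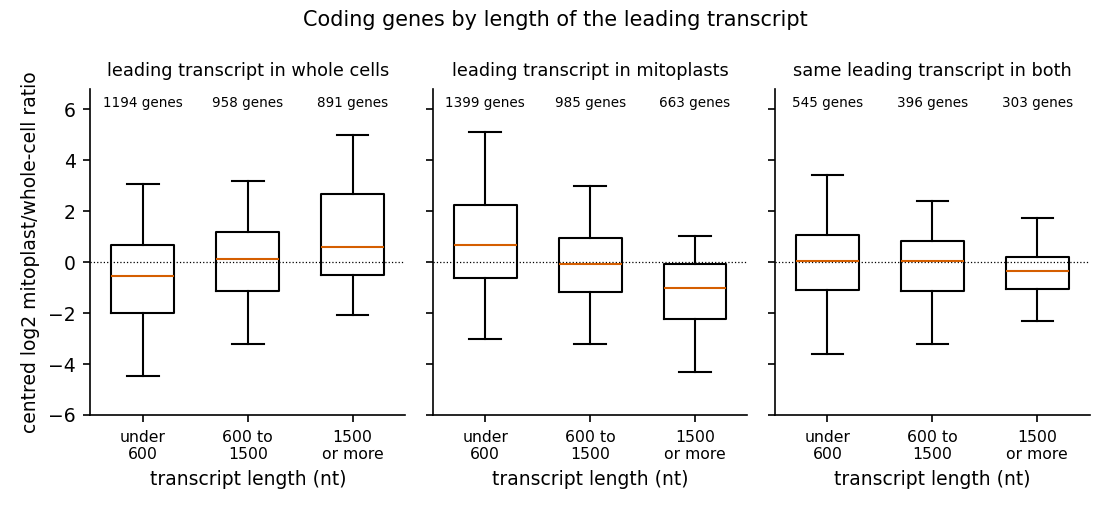
Centred log2 mitoplast to whole-cell ratio of graded nuclear-encoded coding genes by the length of their leading transcript in whole cells (left), in mitoplasts (middle) and where the same transcript led in both (right); boxes span the quartiles with the median as a line, and whiskers run from the 5th to the 95th percentile. Short leading transcripts go with a high ratio in the middle panel and a low ratio in the left one, and at 1500 nt or more the box is narrower where the transcript is shared.

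The same transcript led in both libraries for 1249 coding genes (40.9%), and for 362 nuclear-encoded genes this was a coding transcript of 1000 nt or longer. Ratios of these genes varied less, with an SD over genes of 1.30 against 2.24 over all graded coding genes. Of the 362, 40 (11%) were higher by 1 or more and 94 (26%) lower, with a median of −0.27. This subset was set after values were seen. CCDC85B, which encodes a coiled-coil protein, had the highest ratio, at 13.4 FPKM in whole cells against 873 in mitoplasts (7.49), all in its transcript of 1524 nt. In the young pair it was at 114 and 87.5 FPKM (0.46). AGBL4, a cytosolic carboxypeptidase gene, came next at 0.0710 and 20.6 FPKM (5.91). SLCO5A1, a membrane transporter gene, was at 19.9 FPKM in senescent whole cells against 145 in mitoplasts (4.37). In the young pair SLCO5A1 was at 5.45 and 393 FPKM (6.76). CCDC85B, AGBL4 and SLCO5A1 entered the senescent comparison through mitoplasts alone, so that a high ratio was built into their entry. RAB13, a small GTPase of membrane traffic, was at 70.0 and 220 FPKM (3.21) and at 120 and 318 in the young pair (2.23).

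TRAK2, an adaptor that links mitochondria to motor proteins, was at 32.1 and 61.6 FPKM (2.49), and KIF1C, a kinesin, at 35.1 and 54.8 (2.2), in coding transcripts of 6510 and 7919 nt. PHB2, a scaffold of the mitochondrial inner membrane, was at 18.4 and 27.4 FPKM (2.12), 55.8% of the mitoplast value in its coding transcript of 1515 nt. PHB2 entered through mitoplasts alone, and its coding transcripts alone gave 1.32. CCND1, encoding cyclin D1, was at 541 and 604 FPKM (1.73), all in its coding transcript of 4307 nt. RAB13, TRAK2 and KIF1C are known as mRNAs carried to cell protrusions. A list of 9 such mRNAs, drawn up after these values were seen, was mixed. KANK2 was at 43.9 and 64.7 FPKM (2.12), PKP4 at 508 and 70.2 (−1.26), CYB5R3 at 153 and 32.8 (−0.62), and DDR2, at 238 FPKM in whole cells, was listed at 0 in mitoplasts. NET1 and DYNLL2 were below the floor.

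At the low end of the same subset, VKORC1L1, a vitamin K epoxide reductase of the endoplasmic reticulum, was at 59.9 FPKM in whole cells against 0.164 in mitoplasts (−4.14) and DCLK2 at 64.0 and 0.887 (−3.53). PLCB1, a phospholipase C, was at 424 and 16.3 FPKM (−3.05), and F3, encoding tissue factor, at 219 and 10.2 (−2.73). BNIP3, a mitophagy receptor of the outer mitochondrial membrane, was at 23.4 and 0.0438 FPKM (−2.97) and at 26.5 and 26.9 in the young pair (0.85). The leading transcripts of the 94 lower genes had a median GC content of 46.5%, those of the 228 genes between 51.3% and those of the 40 higher genes 50.4%, at median lengths of 2326, 2264 and 2269 nt. The part of GC content in these ratios was not tested.

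Genes listed at 0 were read by their level in the other library. In mitoplasts the share of coding genes at 0 was smaller at higher levels, from 23.0% of 1516 genes at 20 to 50 FPKM in whole cells to 15.0% of 753 at 50 to 100, 9.07% of 761 at 100 to 500 and 5.11% of 137 at 500 or more. Of noncoding genes at 500 FPKM or more in whole cells, 37.5% of 56 were still at 0. Among the coding genes at 0 with the highest whole-cell values were SGIP1 at 1290 FPKM, VIM at 1144, and SND1 at 818. SGIP1 was wholly in a noncoding transcript of 402 nt. In the reverse direction the coding genes with the highest mitoplast values were ESR1 at 205 FPKM and DLEC1 at 188, each in a noncoding transcript of about 220 nt, then NDUFV2. TUBA1A was at 116 FPKM in mitoplasts, 64.8% of it in a coding transcript of 1384 nt, and belongs to a family of near-identical tubulin genes among which reads may be split.

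Some zeros stood beside assembled transcripts, which have no Ensembl identifier and no gene. Of coding genes at 0 in mitoplasts, 33.1% had an assembled transcript above 0 in their locus in that library, against 9.46% of graded coding genes. Among noncoding genes at 0 in mitoplasts the share was 4.10%. Assembled transcripts held 76.2% of all FPKM in senescent whole cells and 97.3% in senescent mitoplasts. Annotated transcripts above 0 numbered 32365 and 13098. Of 538 coding genes at 0 in senescent mitoplasts, 357 were graded in the young pair, with a median young ratio of −0.95, and 93 were at 0 in both mitoplast libraries.

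**Figure D4:**
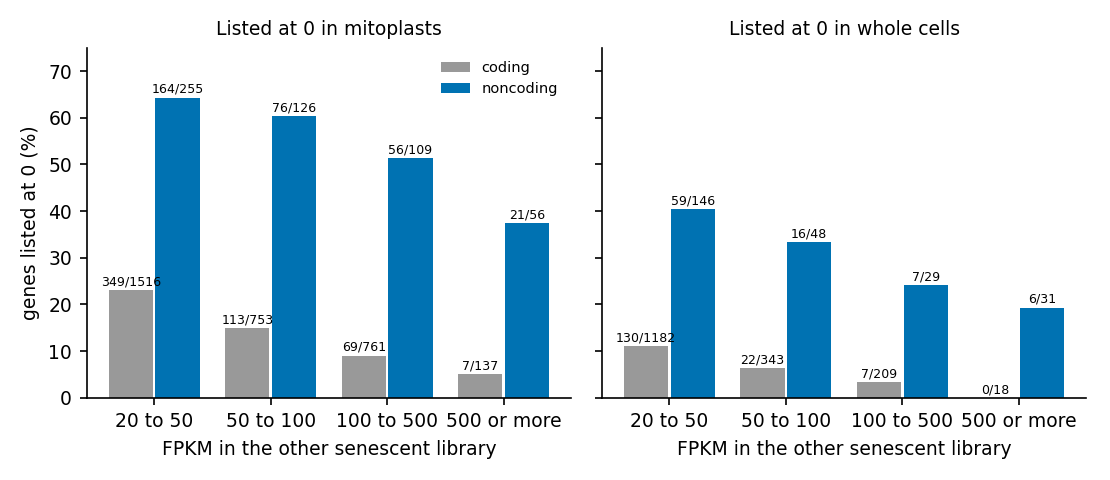
Share of genes listed at 0 in senescent mitoplasts (left) and in senescent whole cells (right), by their FPKM in the other senescent library, for coding (grey) and noncoding (blue) genes; the figures over the bars are genes at 0 and genes in the bin. Zeros thin out with level for both kinds, and remain at 37.5% for noncoding genes at 500 FPKM or more in whole cells.

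The young pair was processed alike, with its own centre of −0.83. Of 2563 genes graded in both pairs, 310 were higher by 1 or more in both, 506 were lower in both, 68 were higher in the senescent and lower in the young pair, and 72 the reverse. Across these genes the ratios had a Spearman rho of 0.51, and 0.41 over the 288 with the same long coding transcript in the lead; genes are not independent replicates and no p-value is given. The 4 libraries are separate, with no library shared between the pairs.

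Lists whose members stand in both pairs were set side by side. Over the 74 ribosomal proteins graded in both, the median was 1.04 in the senescent and 1.36 in the young pair, and 32 (43.2%) were higher by 1 or more in both, against 310 (12.1%) of the 2563 genes. In the young pair by itself, 58 of 75 graded ribosomal proteins were higher, against 30.2% of all graded coding genes. Over 29 subunits of complexes II to V it was 0.39 and 1.44, and over 16 of complex I 0.28 and 1.18. Over 9 collagens it was 0.00 and −1.0, over 24 matrix glycoproteins −0.08 and −0.72, over 10 glycolysis genes −0.11 and 1.49, and over 21 actin cytoskeleton genes −0.34 and 0.76. In these values, respiratory chain, glycolysis and actin mRNAs lay above and collagen mRNAs below the median gene in the young pair, and all of them lay nearer to it in the senescent pair. Ribosomal proteins and 5S entries kept their place above it in both. Whether the pairs differ could not be tested with 1 library in each group.

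**Figure D5:**
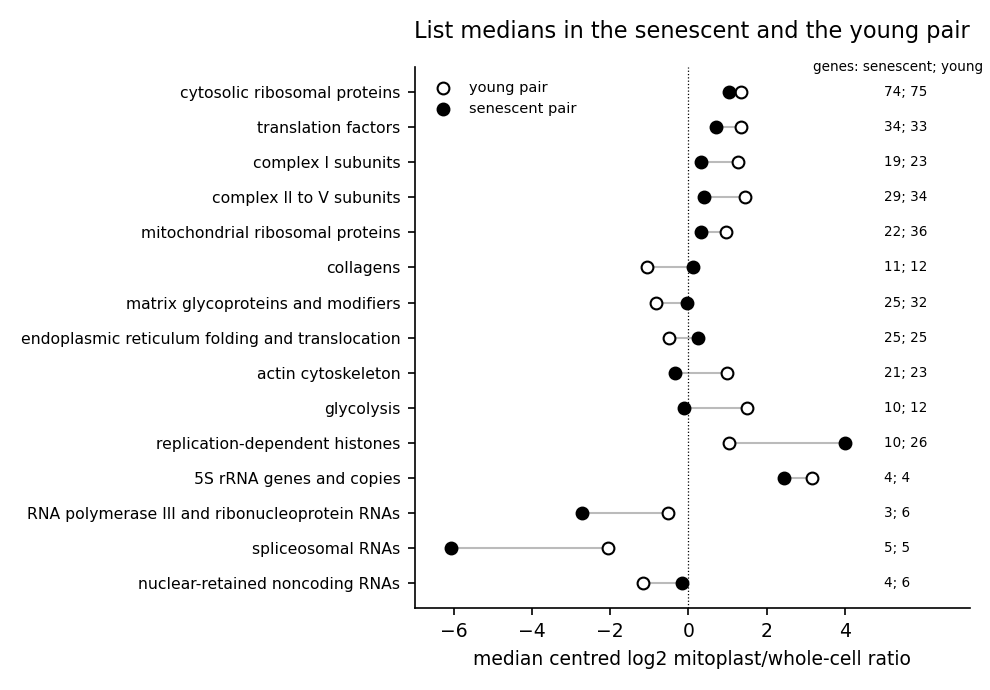
Median centred log2 mitoplast to whole-cell ratio of each gene list in the senescent pair (filled) and the young pair (open), with the number of graded members in each pair at the right. Collagens, matrix glycoproteins, glycolysis, actin and respiratory chain lists lie nearer 0 in the senescent pair, ribosomal proteins and 5S entries lie above 0 in both, and the senescent histone median of 4.02 rests on 10 genes, 6 of which entered through mitoplasts alone.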

How the data were processed

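The deposited values are FPKM per transcript, 1 value for each of 393483 consensus transcripts in each of 4 libraries, 1 library per group. The authors made them with TopHat2 2.0.14, Cufflinks 2.2.1 and Cuffdiff on hg19, per the submitters' processing notes. No counts were used here, so depth and counting error are unknown, and no source used here says whether strand was used. Per the labels' protocols, RNA was TRIzol-extracted and treated with DNase I.

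The 185591 annotated transcripts were summed to genes through GENCODE release 29, which gave a gene symbol and type for 94.1% of them. Coding and noncoding genes were counted apart. Ratios used a pseudocount of 1 FPKM and a floor of 20 FPKM in either library. A centred ratio of 1 or −1 marks a gene as higher or lower; no test was made. Named genes were the mitochondrial-encoded genes, a set of nuclear, ribosomal and reference RNAs, the highest and lowest ratios and zeros, and up to 3 members at each end of each list. Clone names were passed over, and a few items are not reported here. Members and lists were chosen with earlier results of these data known. Alternatives covered the pseudocount, floor, centre, scaling and transcript choice. The script was tested on simulated data. Python 3.11.15, pandas 2.3.3, numpy 2.4.6 and matplotlib 3.10.9 were used.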

Additional observations from a re-analysis of the deposited data

Results flagged for a closer look

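In 9 named genes the centred ratio was 1 or more to one side in the senescent pair and 1 or more to the other side in the young pair. The difference between the pairs was not tested, since each pair has 1 library per fraction. Higher in senescent and lower in young mitoplasts were BUB1B at 5.35 and −2.40, SDHA at 2.15 and −1.89, and LAMB1 at 2.10 and −1.42. Lower in senescent and higher in young mitoplasts were COX6A1 at −5.26 and 1.33, COX7B at −2.83 and 1.98, TIMM50 at −2.33 and 2.99, MRPL28 at −1.82 and 1.26, EIF3L at −1.59 and 1.56, and UQCRQ at −1.34 and 1.57. With coding transcripts alone the senescent ratio changed sign in UQCRQ, to 1.00, and LAMB1 was at 0.33. Coding transcripts were at 0 for SDHA in mitoplasts and for EIF3L in whole cells, so they gave no graded ratio.

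Assembled transcripts, which enter no gene sum, held the highest single value of the senescent mitoplast library. That transcript was at 1891150 FPKM there, 239499 in senescent whole cells and 1403900 in young mitoplasts, and was listed at 0 in young whole cells.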

How the results depend on the processing

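Counts followed the floor. With floors of 5 FPKM, 50 FPKM and none, coding genes higher by 1 or more were 1653, 421 and 1907, and lower 1685, 457 and 2119. Coding genes at 0 in mitoplasts were 1721, 189 and 5897, and at 0 in whole cells 570, 29 and 1122. Noncoding genes higher were 322, 60 and 447, lower 164, 53 and 204, at 0 in mitoplasts 873, 153 and 7095, and at 0 in whole cells 289, 29 and 548. The histone median was 1.87, 2.54 and 1.54. With a floor of 50 FPKM the complex I median was −0.46. With no floor, complexes II to V had −0.38, ribosomal proteins 0.24 and collagens −0.57.

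Without centring, 384 coding genes were higher and 1920 lower, 166 noncoding genes were lower, and the ribosomal protein median turned to −0.53. Complex I had −1.26, complexes II to V −1.19, mitochondrial ribosomal proteins −1.26, collagens −1.47 and histones 2.44. With equal FPKM sums in place of centring, 1457 coding genes were lower and the same medians, ribosomal proteins first, were 0.031, −0.71, −0.60, −0.71, −0.80 and 2.96.

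With protein-coding transcripts alone, 458 coding genes were higher, 498 lower and 97 at 0 in whole cells, and the mitochondrial ribosomal protein median was −0.53. With transcripts of 600 nt or longer these counts were 419, 438 and 36, noncoding genes were 16 higher, 29 lower, 59 at 0 in mitoplasts and 9 at 0 in whole cells, and the complex I median was 1.61. Adding assembled transcripts of single-gene loci left 104 coding genes at 0 in whole cells. Chosen after seeing the data, the floor in both libraries gave 236 coding genes higher and 249 lower, 35 and 27 noncoding genes, and a histone median of 1.25; the same leading transcript in both gave 266 and 326 coding genes and a complex I median of 0.94. Centring with genes at 0 included raised every ratio by 0.39, within the tolerance of 0.585 log2 used to call a value moved; the medians of actin cytoskeleton (0.047), glycolysis (0.28), matrix glycoproteins (0.37) and nuclear-retained RNAs (0.22) turned positive. A pseudocount of 0.1 FPKM moved 37 of 104 results: 36 single genes, such as RBFOX3 (10.37) and LCOR (−10.71), and the mitosis median (6.51). The causes of these shifts were not tested.

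No paired analysis was possible because each group has 1 library, which also leaves no replicate to omit. The files give no depth, so no value has a counting error.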

Other observations

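Host genes of small nucleolar RNAs, whose introns carry the snoRNAs, were graded in 8 of 12 kept members, with 3 higher by 1 or more, 0 lower and a median of 0.61. Over all graded nuclear-encoded noncoding genes 38.7% were higher and 36.0% lower. Of the 3, EPB41L4A-AS1 and SNHG16 entered through mitoplasts alone, so that a high ratio was built into their entry. EPB41L4A-AS1 was at 16.7 FPKM in senescent whole cells against 61.8 in senescent mitoplasts (3.4), GAS5 at 65.1 and 22.4 (0.08) and SNHG14 at 422 and 79.8 (−0.82). Lysosomal genes were all graded among the 20 kept, with a median of 0.08, from ATP6V1A, a subunit of the proton pump, at 102 and 4.94 FPKM (−2.54) to CTSZ, a cathepsin, at 32.9 and 33.2 (1.59). The CTSZ mitoplast value lay in a retained-intron transcript of 647 nt, and its coding transcripts were at 0 there.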
